A study of Mus musculus with 3 samples.

Results

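In 110 places in the genome of mouse precursor B-cell leukaemia cells, a single strong H3K4me3 peak lay under a single strong H3K27ac peak at least 2 times its width. H3K27ac is acetylation of lysine 27 of histone H3, and H3K4me3 is trimethylation of lysine 4 of the same histone. The pairs were found by position and score alone. An H3K4me3 peak and an H3K27ac peak had to share at least 1 bp and overlap no other peak of the opposite mark, which held for 13911 pairs. Both scores had to be 3100 or more, a value at which many scores of both lists are tied, and this left 4569 pairs. Of these, 110 (2.41%) met the width rule and are called the wide-acetylation pairs. The other 4459, with a width ratio under 2, are called the remaining pairs. The 110 were chosen by these measured widths and scores, so those values are given as a description only and have no test.

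The cells came from a cultured Bcr-Abl acute B-cell lymphoblastic leukaemia, Bcr-Abl being a fusion kinase, and were neither stimulated nor treated. Chromatin was immunoprecipitated with an antibody to H3K27ac, with an antibody to H3K4me3 and with control immunoglobulin (IgG), each in 1 library, and the control library is not analysed here. The H3K27ac list held 29468 peaks and the H3K4me3 list 18142, both on the mouse build mm9, and sequencing depth is unknown. Each mark having a single library, no value below carries a replicate error and no test between samples was possible. Intervals are exact 95% binomial intervals for percentages and order-statistic intervals for medians. They treat pairs as independent and cover counting error only. No annotation of mm9 was used, so the pairs are named by position, no gene is assigned to them, and the labelled cell type was not checked against marker genes.

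H3K4me3 is laid down by the SET1 and MLL methyltransferases, mainly around the start sites of active or poised genes and most readily at CpG-rich promoters. H3K27ac is written by the acetyltransferases p300 and CBP and removed by histone deacetylases. It marks active promoters together with H3K4me3, and active enhancers, where H3K4me3 is usually low. At an ordinary active promoter both marks flank the start site over a similar length. Long continuous stretches of H3K27ac are known from clusters of enhancers and from genes with enhancers close to or within them, which in B-lineage cells include genes of cell identity.

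By median, the wide-acetylation pairs differed from the remaining pairs in the width of the H3K27ac peak and little in that of the H3K4me3 peak. The median H3K4me3 width was 2.98 kb (interval 2.73 to 3.31 kb) in the wide-acetylation pairs, against 2.999 kb (interval 2.97 to 3.03 kb) in the remaining pairs. The median H3K27ac width was 7.34 kb (interval 6.70 to 8.37 kb) in the wide-acetylation pairs, against 2.98 kb (interval 2.94 to 3.02 kb) in the remaining pairs. Within a pair, H3K27ac width minus H3K4me3 width had a median of 4392 bp in the wide-acetylation pairs and of -24 bp in the remaining pairs. The median ratio was 2.40 among the 110, with 64 pairs from 2 to under 2.5, 22 pairs at 3 or more and 3 pairs at 4 or more. In the remaining pairs the median ratio was 0.99. The reverse imbalance was rare at these scores, since only 3 of the 4569 pairs had an H3K4me3 peak at least 2 times as wide as its H3K27ac peak. The widths of the 2 marks varied together across the 110 pairs (Spearman's rho 0.84, against 0.81 in the remaining 4459). The limit on the width ratio favours such a relation among the 110, and peaks of a pair share their site. The H3K4me3 peak was 4000 bp or wider in 26 of the 110 pairs. The H3K4me3 width is part of the ratio, so the rule itself favours narrow H3K4me3 peaks, and their shares are a description. The 110 made up 7.02% of eligible pairs with an H3K4me3 peak of 1500 to under 2000 bp (12 of 171, interval 3.68 to 11.9%), and 1.85 to 2.42% in the 3 wider classes. In the class of 1000 to under 1500 bp, 0 of 5 pairs met the ratio.

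**Figure D1:**
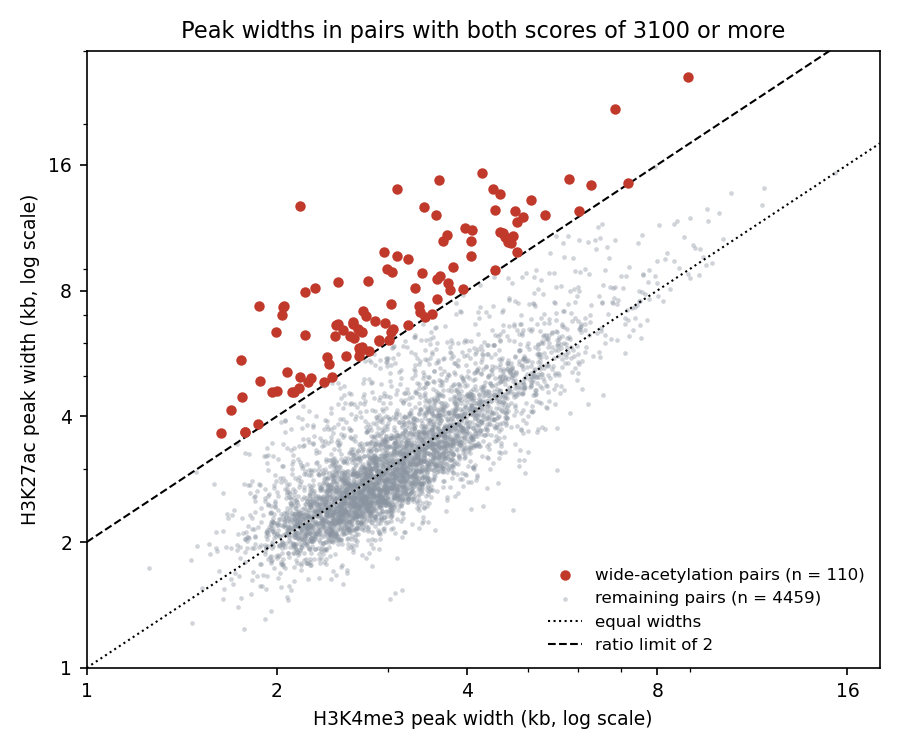
Width of the H3K4me3 peak (horizontal axis, kb, log scale) and of the H3K27ac peak (vertical axis, kb, log scale) in the 4569 pairs with both scores of 3100 or more, with the 110 wide-acetylation pairs in red and the remaining 4459 in grey. The remaining pairs lie around the dotted line of equal widths, and the red points begin at the dashed line of the ratio limit and cover the same H3K4me3 widths as most of the grey points.

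The 3 pairs just inside the limit of the width ratio were chrX:19862501-19869545 with a ratio of 2.0031, chr13:54466867-54481318 with 2.011 and chr2:148698755-148705678 with 2.016. The 3 just outside were chr11:118067843-118076734 with 1.9996, chr1:193146320-193153356 with 1.996 and chr3:53664942-53669673 with 1.992. Their H3K27ac widths ran from 6924 to 14452 bp inside and from 4732 to 8892 bp outside.

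The widest acetylation belonged to chr7:108598801-108624788, which was 26.0 kb wide and the only one of the 110 among the 10 widest H3K27ac peaks of the whole list. Its H3K4me3 peak of 8961 bp was also the widest of the 110. It began 12 bp before the H3K27ac peak, so that all 17.0 kb of the excess lay on the higher-coordinate side. The second, chr15:74748308-74770042, covered 21.7 kb around an H3K4me3 peak of 6851 bp, with overhangs of 11116 bp on the lower-coordinate side and 3768 bp on the other. An overhang here is the length of H3K27ac past one end of the H3K4me3 peak.

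The next 3 were strongly one-directional. At chr11:100585364-100600677 the acetylation measured 15.3 kb, with 10891 bp of overhang at the lower-coordinate end and 195 bp at the other. At chr3:126503483-126518292 it measured 14.8 kb, with 9028 bp at the lower-coordinate end and none at the other. At chr4:133175378-133190072 it measured 14.7 kb, with 11044 bp at the lower-coordinate end and 35 bp at the other. The sixth widest, chr13:54466867-54481318, had nearly equal overhangs of 3315 and 3951 bp.

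The last 4 of the 10 widest measured 13.6 to 14.3 kb. They were chr4:124791568-124805890, chr6:89229992-89243992, chr12:86026728-86040713 and chr6:129175735-129189324. Their longer overhangs were 7906, 6762, 10683 and 8757 bp, in that order. Of the 10 widest, 7 had at least 80% of their overhang on one side, compared with 70 of all 110 (63.6%).

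The largest width ratio, 5.86, was found at chr13:43301977-43314734. There an H3K4me3 peak of 2178 bp lay in 12.8 kb of H3K27ac, with 1146 bp of overhang on the lower-coordinate side and 9434 bp on the other. The next were chr12:86026728-86040713 with a ratio of 4.51 and chr4:133175378-133190072 with 4.06, both also among the 10 widest. The remaining 7 of the 10 largest ratios fell between 3.52 and 3.92. They lay at chr6:128743017-128750359, chr10:7557879-7570537, chr11:100585364-100600677, chr7:111434480-111441835, chr10:55941695-55949631, chr17:35095674-35102971 and chr13:45965351-45973443. Their H3K4me3 peaks were 1873 to 4228 bp wide. All 10 of the largest ratios had at least 80% of the overhang on one side, compared with 63.6% of all 110. With a ratio of 3 or more and the H3K4me3 peak inside, it was 61.9% (interval 38.4 to 81.9%). Over all wide-acetylation pairs with the H3K4me3 peak inside it was 55.6%, which lies within that interval.

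The excess acetylation of each pair was split into a longer and a shorter overhang. That order is set by definition, so their sizes are a description only. The longer overhang had a median of 3788 bp (interval 3292 to 4321 bp) and the shorter one a median of 485 bp (interval 277 to 754 bp). The longer overhang alone was wider than the H3K4me3 peak in 83 of the 110 pairs, reached 5000 bp in 35 and 10000 bp in 5. An overhang of 5000 bp or more was found in 2 of the 4459 remaining pairs, where a ratio under 2 allows one mainly beside a wide H3K4me3 peak. Neither chromosomal direction was favoured: the longer overhang lay on the lower-coordinate side in 57 of the 110 pairs (51.8%, interval 42.1 to 61.4%). Whether it followed the direction of a gene was not analysed here. Across the 110 pairs the longer overhang was related to the width of the H3K4me3 peak (Spearman's rho 0.64), which the ratio limit favours, and was weakly related to the shorter one (rho -0.21).

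**Figure D2:**
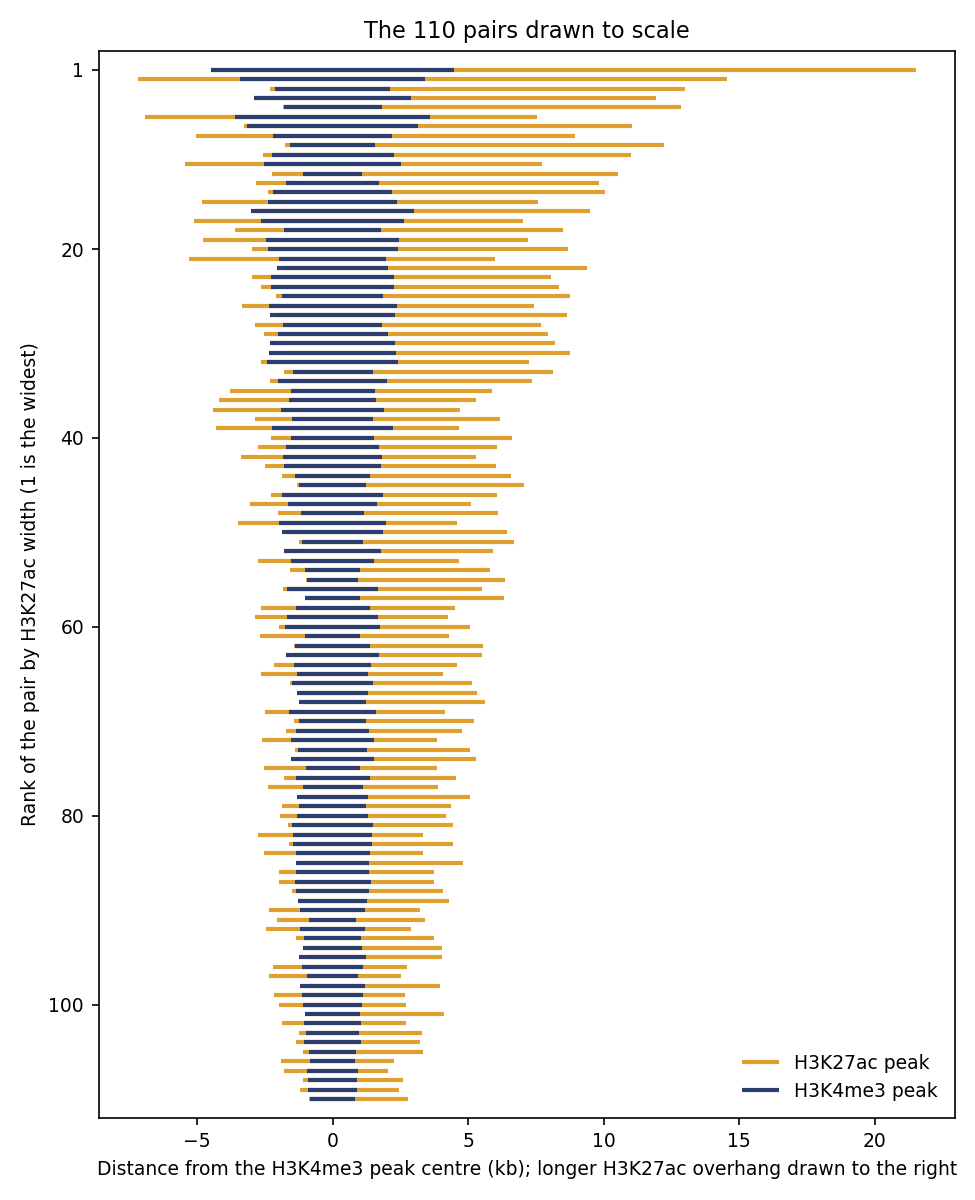
Each line is 1 of the 110 pairs, drawn to scale around the centre of its H3K4me3 peak (blue) with its H3K27ac peak (orange), turned so that the longer overhang points right. The horizontal axis is the distance from that centre in kb, and the lines are ordered by H3K27ac width from 26.0 kb at the top to 3.64 kb at the bottom. The longer reach to the right is set by turning the lines.

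The H3K4me3 peak lay wholly inside the H3K27ac peak in 90 of the 110 pairs (81.8%, interval 73.3 to 88.5%), compared with 1119 of the 4459 remaining pairs (25.1%, interval 23.8 to 26.4%) and 26.5% of all 4569. A wider H3K27ac peak must contain its partner more often, so this difference follows in part from the rule. In the other 20 pairs the H3K4me3 peak passed the end of the H3K27ac peak, by at most 682 bp.

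Whether one-sided overhang was more or less frequent among the wide-acetylation pairs depended on which pairs were counted. Over all pairs with any overhang, 70 of 110 wide-acetylation pairs (63.6%, interval 53.9 to 72.6%) and 2592 of 3290 remaining pairs (78.8%, interval 77.3 to 80.2%) had at least 80% of it on one side. A pair in which H3K4me3 passes one end counts there as wholly one-sided. With the H3K4me3 peak inside, a limit that the widths themselves help to set, 50 of 90 wide-acetylation pairs (55.6%, interval 44.7 to 66.0%) had at least 80% of the overhang on one side, compared with 421 of 1119 remaining pairs (37.6%, interval 34.8 to 40.5%). The background over all 1209 such pairs was 39%. The median share on the longer side was 83.7% (interval 74.7 to 89.2%) in the wide-acetylation pairs and 74.0% (interval 72.6 to 75.1%) in the remaining ones. The intervals of the percentages did not overlap, whereas those of the medians overlapped at their ends. Overhangs of the remaining pairs are short, with a median of 148 bp on the longer side over all of them, so their split rests on small distances at the peak ends.

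**Figure D3:**
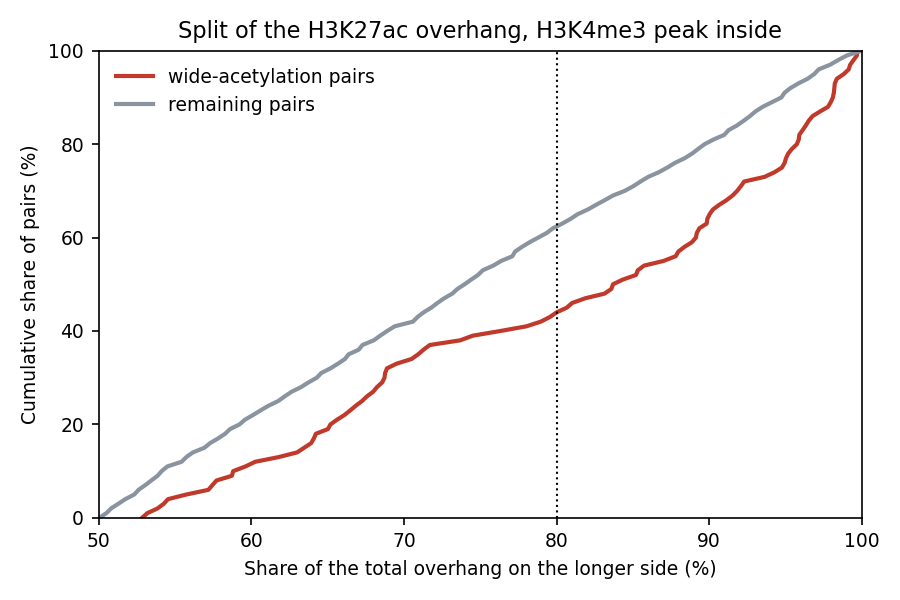
Cumulative share of pairs (vertical axis, %) by the share of the total H3K27ac overhang that lies on the longer side (horizontal axis, %), for the 90 wide-acetylation pairs (red) and 1119 remaining pairs (grey) with the H3K4me3 peak inside. At the dotted line of 80% the red curve lies below the grey one, since 55.6% of the wide-acetylation pairs and 37.6% of the remaining pairs lie beyond it.

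The 110 pairs could be sorted by their shorter overhang, with limits chosen after its values were seen. In 42 pairs it was under 250 bp, so that the H3K4me3 peak sat at one end of the acetylation. These had a median longer overhang of 4073 bp and included all 20 pairs in which H3K4me3 passed the end. In 38 pairs both overhangs were 1000 bp or more, with medians of 3224 and 1373 bp, and the H3K27ac peak was widest there, at a median of 8403 bp against 6999 bp in the 42 pairs. The remaining 30 lay between. The most evenly split pair was chr7:127990486-127999589, with overhangs of 2802 and 2500 bp.

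Further H3K27ac peaks without H3K4me3 lay close to the wide-acetylation pairs. Distances were measured outward from the edges of the H3K27ac peak, because the pairing rule bars a second H3K4me3 peak inside it. An H3K27ac peak overlapping no H3K4me3 was present within 12.5 kb of 78 of the 110 pairs (70.9%, interval 61.5 to 79.2%), compared with 1358 of the 4459 remaining pairs (30.5%, interval 29.1 to 31.8%). The background over all 4569 pairs was 31.4%. The median distance to the nearest such peak was 4.29 kb (interval 2.11 to 6.74 kb) in the wide-acetylation pairs and 32.1 kb (interval 30.2 to 34.2 kb) in the remaining ones. With both sets limited to H3K27ac peaks of 5000 bp or more, it was 4.21 kb in the wide-acetylation pairs (interval 1.94 to 6.57 kb) and 7.86 kb in the remaining pairs (interval 6.31 to 10.4 kb), and the intervals overlapped. The 10 widest pairs all had one within 12.5 kb, as did 8 of the 10 with the largest ratio. Within 12.5 kb, the nearest of these peaks had a median score of 203 (interval 140 to 288) beside the wide-acetylation pairs and 175 (interval 158 to 194) beside the remaining ones, and the intervals overlapped.

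Much of this difference went with the width of the H3K27ac peak itself. Among remaining pairs, the percentage with a flanking H3K27ac-only peak was 25.1% for H3K27ac peaks under 4000 bp, and 63.9% both for those of 6000 to under 8000 bp and for those of 8000 bp or more. When the remaining pairs were weighted to the H3K27ac width classes of the 110, their percentage was 58.4%, against 70.9% in the wide-acetylation pairs. In the class of 8000 bp or more, 40 of 50 wide-acetylation pairs (80%, interval 66.3 to 89.97%) and 53 of 83 remaining pairs (63.9%, interval 52.6 to 74.1%) had such a peak, and the intervals overlapped. They also overlapped in each of the 4 narrower classes. With both sets limited to H3K27ac peaks of 5000 bp or more, such a peak lay beside 75.3% of 93 wide-acetylation pairs (interval 65.2 to 83.6%) and 57.0% of 502 remaining pairs (interval 52.5 to 61.4%), and these intervals did not overlap. Within that limit the median H3K27ac width was still 8131 bp in the wide-acetylation pairs, against 6003 bp in the remaining pairs.

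**Figure D4:**
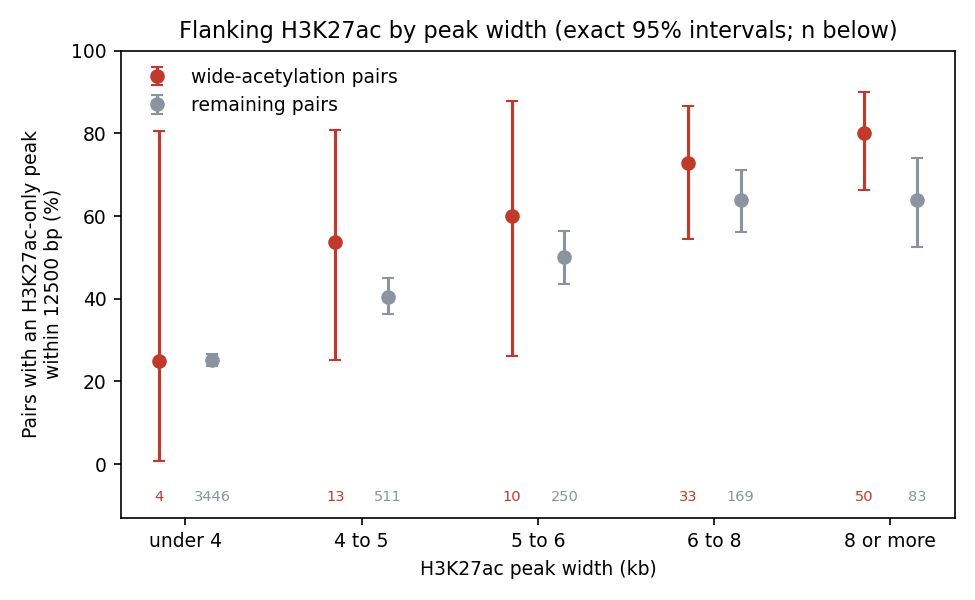
Percentage of pairs with an H3K27ac peak free of H3K4me3 within 12.5 kb (vertical axis) by the width of the pair's H3K27ac peak (horizontal axis, kb), with exact 95% intervals and the number of pairs under each point. The wide-acetylation pairs (red) and the remaining pairs (grey) are both higher in the widest class than in the narrowest, and their intervals overlap within each of the 5 classes.

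The percentage was also compared within classes of H3K4me3 width. Within such a class the width rule makes the H3K27ac peaks of the wide-acetylation pairs mostly the wider ones. These comparisons therefore do not match the H3K27ac width. In pairs with an H3K4me3 peak of 3000 bp or more, 44 of 54 wide-acetylation pairs (81.5%, interval 68.6 to 90.7%) and 800 of 2228 remaining pairs (35.9%, interval 33.9 to 37.9%) had a flanking H3K27ac-only peak. In pairs with an H3K4me3 peak of 2500 to under 3000 bp, 60.9% of the wide-acetylation pairs (interval 38.5 to 80.3%) and 25.3% of the remaining pairs (interval 22.9 to 27.9%) had one. In pairs with an H3K4me3 peak of 2000 to under 2500 bp, 61.9% of the wide-acetylation pairs (interval 38.4 to 81.9%) and 23.8% of the remaining pairs (interval 21.0 to 26.8%) had one. With an H3K4me3 peak of 1500 to under 2000 bp it was 58.3% of 12 wide-acetylation pairs (interval 27.7 to 84.8%) and 28.3% of 159 remaining pairs (interval 21.5 to 36.0%), the only one of these 4 classes in which the intervals overlapped.

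The acetylation in the surrounding 25 kb on each side was compared next. The summed length of other H3K27ac peaks there had a median of 7836 bp (interval 5936 to 10447 bp) in the wide-acetylation pairs and 2398 bp (interval 2269 to 2520 bp) in the remaining ones. For H3K27ac peaks of 5000 bp or more it was 9154 bp (interval 6209 to 12565 bp) in the wide-acetylation pairs and 5102 bp (interval 4514 to 5724 bp) in the remaining ones. In the class of 6000 to under 8000 bp it was 6002 bp in the wide-acetylation pairs (interval 3987 to 12565 bp) and 5927 bp in the remaining ones (interval 4830 to 8448 bp). In the class of 8000 bp or more it was 10143 bp in the wide-acetylation pairs (interval 6980 to 15099 bp) and 7501 bp in the remaining ones (interval 4970 to 9309 bp), and the intervals overlapped in both of these classes. The most was 34.0 kb, beside chr17:35350678-35362831. In 6 of the 110 pairs (5.45%, interval 2.03 to 11.5%) these windows held no H3K27ac at all, compared with 27.1% of the remaining pairs (interval 25.8 to 28.5%). The most isolated of the 6 was chr10:55941695-55949631, 114 kb from the next H3K27ac peak. It carried 5599 bp of overhang on the lower-coordinate side of a 2220 bp H3K4me3 peak, and another H3K4me3 peak lay 3.81 kb away. The other 5 were chr5:102360969-102369643, chr7:113582600-113588831, chr8:36486647-36497919, chr16:4074602-4081763 and chr16:57334904-57339755. Wide acetylation around an H3K4me3 peak was thus also present where no neighbouring H3K27ac peak was called in these windows. Across the 110, the summed flanking length was only weakly related to H3K27ac width (Spearman's rho 0.19).

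Other H3K27ac peaks lay directly beside some of the wide ones. Another H3K27ac peak began or ended within 1000 bp of 40 of the 110 pairs (36.4%, interval 27.4 to 46.1%), compared with 434 of the remaining pairs (9.73%, interval 8.88 to 10.6%) and 10.4% of all 4569. Among H3K27ac peaks of 5000 bp or more 35.5% of the wide-acetylation pairs (interval 25.8 to 46.1%) and 27.7% of the remaining pairs (interval 23.8 to 31.8%) had one, with overlapping intervals. Joined over gaps of up to 1000 bp, the longest stretch with a wide-acetylation pair was 37.8 kb, around chr13:56268500-56280962. The pair at chr3:126503483-126518292 belonged to a stretch of 31.6 kb in 6 H3K27ac peaks, with no other H3K4me3 peak. Joining tied 40 of the 110 pairs to another peak, in 39 stretches. A further H3K4me3 peak overlapped the stretch of 19 of the 110 pairs (17.3%, interval 10.7 to 25.7%) and of 171 of the 4459 remaining pairs (3.83%, interval 3.29 to 4.44%). By the pairing rule only a joined pair can have one, so these shares also carry the difference in joining. Among joined pairs it was 19 of 40 wide-acetylation pairs and 171 of 434 remaining pairs. Whether such gaps lie in the chromatin or come from how the peak caller divided the signal was not tested.

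Over all widths, other H3K4me3 peaks also lay nearer to the wide-acetylation pairs. The median distance to the next one was 10.4 kb (interval 8.67 to 14.4 kb), against 19.4 kb (interval 18.6 to 20.2 kb) in the remaining pairs. Within 12.5 kb, 61 of the 110 pairs (55.5%, interval 45.7 to 64.9%) and 1642 of the remaining pairs (36.8%, interval 35.4 to 38.3%) had one, with a background of 37.3%. For H3K27ac peaks of 5000 bp or more the median was 11.0 kb in the wide-acetylation pairs (interval 8.67 to 14.6 kb) and 15.6 kb in the remaining pairs (interval 13.4 to 18.9 kb), with overlapping intervals. For those of 8000 bp or more the order was reversed, with a median of 13.8 kb in the 50 wide-acetylation pairs (interval 8.90 to 16.3 kb) and 10.3 kb in the 83 remaining pairs (interval 7.80 to 15.6 kb), again overlapping. Since the pairing rule drops an H3K27ac peak that reaches a second H3K4me3 peak, the wide-acetylation pairs are those in which it did not.

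**Figure D5:**
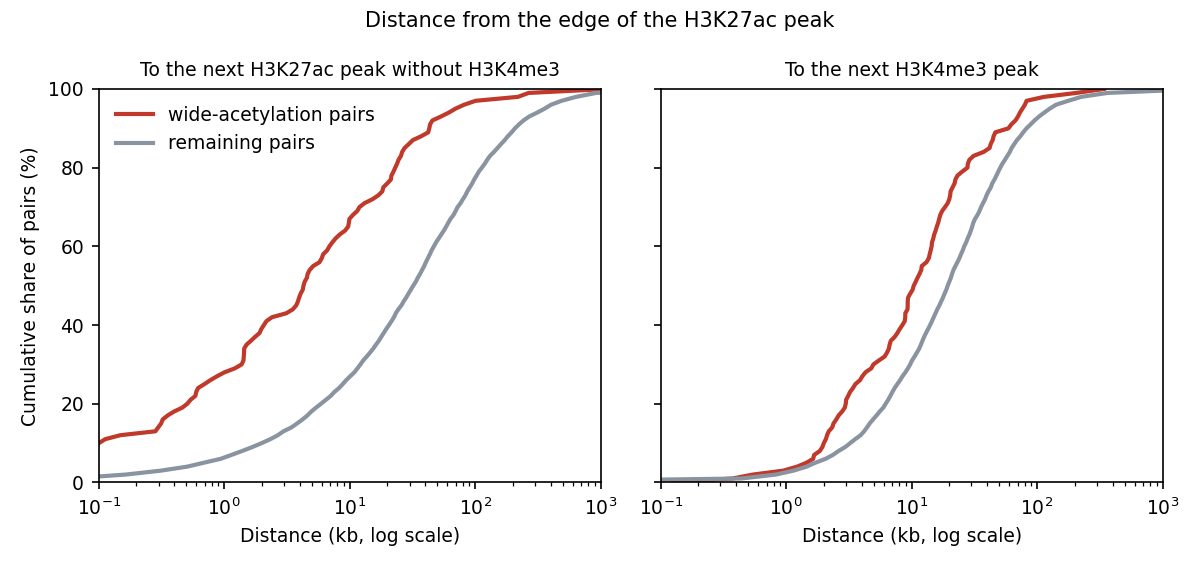
Cumulative share of pairs (vertical axis, %) by the distance in kb (horizontal axis, log scale) from the edge of the H3K27ac peak to the next H3K27ac peak without H3K4me3 (left) and to the next H3K4me3 peak (right). Without regard to H3K27ac width, the wide-acetylation pairs (red) lie closer to both than the remaining pairs (grey), with medians of 4.29 kb (red) and 32.1 kb (grey) on the left (4.21 and 7.86 kb when both sets are limited to H3K27ac peaks of 5000 bp or more) and of 10.4 kb (red) and 19.4 kb (grey) on the right.

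The direction of the longer overhang was compared with the side on which neighbours lay. Only 3290 of the 4459 remaining pairs had any overhang. The others are counted too, their longer side being the end that H3K4me3 passed by less. The nearer H3K27ac neighbour was on the side of the longer overhang in 62 of the 110 pairs (56.4%, interval 46.6 to 65.8%), and in 56.5% of the remaining pairs (interval 55.1 to 58.0%). For wide-acetylation pairs that interval includes 50%, and the length of H3K27ac in 25 kb also showed no preferred side, being greater past the longer overhang in 52 of 104 pairs. The nearer H3K4me3 neighbour was on the side of the longer overhang in 45 of the 110 pairs (40.9%, interval 31.6 to 50.7%), compared with 56.4% of the remaining pairs (interval 54.9 to 57.9%). These intervals did not overlap. The pairing rule bears on this comparison, since a long overhang that met an H3K4me3 peak would have removed the pair.

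The 110 pairs lay on all 19 autosomes and on the X chromosome, with 1 to 14 per autosome. Chromosome 7 held the most, 14 of its 318 eligible pairs (4.40%, interval 2.43 to 7.28%), and chromosome 6 held 10 of 220 (4.55%, interval 2.201 to 8.20%). Chromosome 18 and the X chromosome held 1 each, of 158 and 77. Of the 20 chromosomes compared, chromosome 7 was the only one whose interval left out the overall 2.41%. Its lower end of 2.43% lay close to that value, and the intervals were not adjusted for comparing 20 chromosomes. No pair came from the 6 eligible pairs on unplaced contigs.

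The median distance from one of the 110 to the next on the same chromosome was 2.67 Mb, and so small a set is sparse by its size alone. There were 14 within 100 kb of another (12.7%, interval 7.14 to 20.4%), forming 7 neighbouring couples on 6 chromosomes. Any other of the 4569 pairs lay within 100 kb of 70.9% of the 110 (interval 61.5 to 79.2%). For the remaining pairs it was 61.2% (interval 59.8 to 62.7%), and the intervals overlapped. The closest couple lay 5.63 kb apart on chromosome 12, at chr12:86011608-86021102 and chr12:86026728-86040713, within a joined stretch of 29.1 kb. The one with the lower coordinates had overhangs of 2580 and 3686 bp, and the other had 10683 and 199 bp, with the long overhang pointing towards its neighbour. On chromosome 15 the 21.7 kb peak had a second wide-acetylation pair 13.1 kb away, at chr15:74783156-74793935, with 10.8 kb of H3K27ac. The other couples were on chromosomes 2, 4, 7 and 14, and chromosome 7 had 2 of them.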

How the data were processed

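ChIP-seq peak lists were available for 1 H3K27ac and 1 H3K4me3 library of cultured Bcr-Abl-driven mouse leukaemia cells. The submitters' processing notes name MACS, a peak caller, and the build mm9. The MACS version, aligner, read filters and read numbers were not given in the sources used here. In the deposited lists, the score of each peak is the authors' own value and no label or header defines it. It runs from 50.01 to 3233.06 for either mark, and equals 3100 in 6863 H3K27ac and 9042 H3K4me3 peaks. A score above 3100 is not read as a stronger peak. Scores were used to filter peaks, with the same limit in both lists, and to describe peaks within a list.

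Pairs, overhangs and distances were computed in Python 3.11.15 (pandas 2.3.3, SciPy 1.17.1, NumPy 2.4.6), and the steps were checked on simulated peak lists. Width is end minus start, and printed positions count from 1. Negative overhangs were set to 0, except when deciding which side was the longer one. No gene annotation or sequence of mm9 was used. The members and measures were chosen with earlier results of these data known. Positions named are the 10 widest, the 10 largest ratios and the 3 on each side of the limit. Any further position was picked with its values in view. Alternatives covered the limits of ratio, score, overlap and distance, joining of peaks, and chromosomes. A deeper library gives more and wider peaks, so depth and chromatin cannot be told apart as sources of a width difference between the marks.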

Additional observations from a re-analysis of the deposited data

How the results depend on the processing

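Alternatives gave 97 values, of which 71 lay inside the main value's interval (counts within 1.5 times) and 26 did not. No p-value exists and 1 library per mark limits every value. No paired analysis was possible because each mark has 1 library. A width ratio limit of 1.5 gave 335 pairs (7.33% of eligible pairs), of which 43.9% were one-sided, and 28.8% of the pairs below it had a flanking H3K27ac-only peak. A limit of 3 gave 22 pairs (0.482%), of which 95.5% had the H3K4me3 peak inside and 86.4% had a flanking H3K27ac-only peak. The nearer H3K27ac neighbour was on the longer side in 72.7% of the 22 (interval 49.8 to 89.3%). That interval includes 50% and the 56.4% of the 110. Joining peaks within 500 bp gave 156 pairs (3.31%) that included 99 of the 110. The percentages with a flanking H3K27ac-only peak then became 50.6% in the wide-acetylation pairs and 26.7% in the remaining ones, and the distance to H3K4me3 in the remaining ones 20.2 kb. In the wide-acetylation and the remaining pairs, in that order here and below, they were 54.5 and 18.1% within 5000 bp, and 81.8 and 44.5% within 25000 bp. Leaving out flanking peaks under 1000 bp away, a setting chosen after seeing the data, gave 60.9 and 27.3%. Flanking peaks scoring at least 100 gave 22.8% in the remaining pairs. Weighting to the width classes gave 58.4% there, and H3K27ac peaks of 5000 bp or more gave 57.0%, 15.6 kb to H3K4me3 and 27.7% with a neighbour within 1000 bp, all added after seeing the data. A one-sided limit of 90% gave 35.6 and 19.3%. In every setting run the wide-acetylation pairs had the higher percentage of flanking H3K27ac-only peaks.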

Other observations

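The width imbalance depended on which of the marks scored 3100 or more. H3K27ac was at least 2 times as wide as H3K4me3 in 913 of 1199 one-to-one pairs in which H3K27ac alone reached that score (76.1%, interval 73.6 to 78.5%). The same held for 1236 of 4356 pairs in which neither mark did (28.4%, interval 27.04 to 29.7%), for 110 of 4569 pairs in which both did (2.41%, interval 1.98 to 2.89%) and for 10 of 3787 pairs in which H3K4me3 alone did (0.264%, interval 0.127 to 0.485%). Over all scores, 2269 pairs met the width ratio. Whether score and width move together for technical reasons was not tested.

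Very wide acetylation more often overlapped 2 or more H3K4me3 peaks than it belonged to the 110 pairs. Of the 307 H3K27ac peaks wider than 10 kb, 150 overlapped 2 or more H3K4me3 peaks, 49 overlapped none, and 31 were among the 110 pairs. The other 77 overlapped 1 H3K4me3 peak and failed the rule on scores, width or pairing.

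Scores above 3100 were found in 1 H3K27ac and 3 H3K4me3 peaks of the 110 pairs, and in 156 H3K27ac and 11 H3K4me3 peaks of the 4459 remaining pairs. The pair with the largest ratio, chr13:43301977-43314734, was among the 3, with an H3K4me3 score of 3148. The narrowest H3K27ac peak of the 110, chr11:75271232-75274875, 3644 bp wide, was another, with 3191. It lay 125 bp from the next H3K4me3 peak, the smallest such distance among the 110. The highest H3K4me3 score of the 110 therefore belonged to the pair with the narrowest peaks of both marks.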
